A study of Homo sapiens with 24 samples.

Results

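The regions described here are the stretches of the genome at which all 3 IgG control libraries of a CUT&RUN study had a peak. Peaks of all 24 deposited lists were joined into regions wherever 1 or more bases were shared, and 638 of the 79570 merged regions (0.802%) were selected on a peak in each IgG library. The IgG values therefore chose these 638 IgG regions and are given as a description. Below the rule, 370 regions had a peak in 2 IgG libraries and 6341 in 1, while 72221 regions had none.

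The study used HUDEP-2, a human erythroid progenitor cell line of long standing, grown under expansion conditions with no further treatment. Clone T carries TR4, the product of NR2C2, edited to end in FLAG and MYC tags, clone B has its BCL11A tagged with HA plus MYC, and both edits are present in clone TB. TR4 and BCL11A are repressors of the fetal γ-globin genes, and the shared MYC epitope let both be profiled with the same antibody. TR4-directed libraries are those of the MYC and TR4 antibodies in clone T and of the TR4 antibody in clone TB (9 libraries). BCL11A-directed libraries are those of the MYC and HA antibodies in clone B and of the HA antibody in clone TB (9 libraries). In clone TB the MYC antibody recovers both proteins, and its 3 libraries stand apart from that comparison. IgG, an antibody with no intended target, gave 1 library per clone. Each genotype is 1 clone, so the edit and the clone cannot be told apart. Whether the 3 libraries of a group stem from separate cultures is not stated in the labels. The p-values thus speak only of the spread between libraries, which may be technical.

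In CUT&RUN an antibody holds a nuclease on chromatin, and the fragments it releases are sequenced. With IgG the nuclease is not guided to a protein, so its peaks come from fragments that are released or counted in excess for other reasons. Sequence of certain kinds is known for this: DNA present in many copies per cell, such as the mitochondrial genome and the ribosomal RNA genes, and sequence that occurs in more copies in the cell than in the reference, such as satellite arrays around centromeres. Nuclear copies of mitochondrial DNA, short pieces that were inserted into chromosomes during evolution, can take up reads from the mitochondrial genome because the sequences are alike.

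Sequence from the regions is shown for a nuclear copy of mitochondrial DNA, the kind that target libraries shared most with IgG. All of it is from RefSeq (GRCh38.p14). The nuclear insert with the most IgG regions is on chromosome 1, where 6 of them lie between positions 629094 and 634916. There the pseudogenes MTND1P23, MTND2P28, MTCO1P12, MTCO2P12, MTATP6P1 and MTCO3P12 follow each other in the order of the mitochondrial genes they are named for. The microRNA gene MIR12136 (chr1:632615-632685, minus strand) lies within the fifth of these regions. It sits between MTCO1P12 and MTCO2P12, the place that TRNS1, a serine transfer RNA, takes between COX1 and COX2 in the mitochondrial genome. Its hairpin, with the mature sequence in capitals, and the mature microRNA, with bases 2 to 8 (the seed) in capitals, read as follows.
MIR12136 hairpin: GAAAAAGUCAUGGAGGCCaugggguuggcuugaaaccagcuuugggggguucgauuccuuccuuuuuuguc
hsa-miR-12136: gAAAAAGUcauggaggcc

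The first region of that block (chr1:629094-630025) begins inside the promoter window of the long noncoding RNA gene LOC101928626. That window, 250 bases before to 50 bases after the annotated start, is chr1:628960-629259 on the minus strand. The 166 bases in capitals lie in the IgG region, have a GC content of 43.4% and overlap MTND1P23. The rest, in lower case, lies outside.
LOC101928626 promoter window: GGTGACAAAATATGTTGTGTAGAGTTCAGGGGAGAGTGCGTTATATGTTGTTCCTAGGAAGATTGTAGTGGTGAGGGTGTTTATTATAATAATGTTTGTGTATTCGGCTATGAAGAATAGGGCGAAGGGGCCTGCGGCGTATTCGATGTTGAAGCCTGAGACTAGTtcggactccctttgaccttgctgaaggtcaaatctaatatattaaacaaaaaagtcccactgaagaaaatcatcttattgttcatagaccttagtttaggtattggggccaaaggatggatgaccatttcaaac

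A contrasting microRNA lies in an IgG region on chromosome 21 (chr21:8986945-8987408), at the end of the block that holds the ribosomal RNA genes. It is hsa-miR-3648, from MIR3648-2 (chr21:8987026-8987046, plus strand), printed with its seed in capitals. Its GC content is 81%, against 50% for the mature hsa-miR-12136.
hsa-miR-3648: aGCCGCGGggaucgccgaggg

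The 638 IgG regions were mostly small, and their peaks were placed alike in the 3 IgG libraries. Their selection favours this, since the rule asks for joined peaks of all 3 libraries. It also favours width, since a region joined from more peaks tends to be wider. Their median width was 152 bases (88 to 16558), against 94 bases for regions with a peak in 1 or 2 IgG libraries and 111 for all merged regions. In 636 of the 638 a base was shared by a peak of each IgG library. In the 598 regions with a single peak per IgG library, the summits of the 3 peaks lay a median of 14 bases apart, and in 90.1% within 50 bases.

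Fold enrichment, the height of a peak over the caller's background, was higher in these regions than elsewhere in the IgG lists, which their selection favours. The median fold of the IgG regions was 9.46 in clone T, 10.5 in clone B and 9.71 in clone TB. Outside them, IgG peaks had median folds of 5.54, 5.16 and 5.49 in the same clones. Spearman's rho of the 638 folds was 0.92 for each pair of IgG libraries, a description over regions that share the genome and are not replicates. The weakest peak in an IgG region had a −log10 q of 2.17 in clone T, 3.03 in clone B and 2.90 in clone TB. All folds and q-values are the authors' own. They serve here to describe and rank peaks within a list, and no test sets folds of 1 list against those of another.

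Most IgG regions lay away from genes. On chromosomes 1 to 22, X and Y there were 514 of them, 1 was the mitochondrial genome, and 123 (19.3%) lay on 38 contigs. Contigs are assembled pieces that are unplaced (62 IgG regions), unlocalised within a known chromosome (58) or alternate versions of a locus (3). Of the regions without an IgG peak, 2.3% lay on contigs, with 0.107% on unplaced, 0.123% on unlocalised and 2.07% on alternate ones. For the IgG regions these shares were 9.72%, 9.09% and 0.47%, so the order was reversed for alternate contigs. None of the 514 was within 1 kb of an end of a protein-coding gene record, which allows a share of up to 0.584%, while 25.4% of regions without an IgG peak were. Each region without an IgG peak holds a peak of a target library, so these contrasts also describe where target peaks lie. Within 1 kb of an end of any gene record lay 8.56% of the 514 and 32.7% of regions without an IgG peak. A gene record was overlapped by 64 of the 514 (12.5%), and 27 (5.25%) lay inside a protein-coding one. The median distance to the nearest protein-coding gene record was 718575 bases, and 39.1% of the 514 were over 1 Mb away.

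Stretches of over 1 Mb without any gene record held 375 of the 514 (73.0%). The same stretches held 0.604% of the regions without an IgG peak. No target library had a peak at 298 of these 375 (79.5%), nor at 75 of the 139 IgG regions elsewhere on these chromosomes (54.0%), a difference that was not tested. No IgG region in a gene-free stretch had a peak in more than 8 target libraries.

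**Figure D1:**
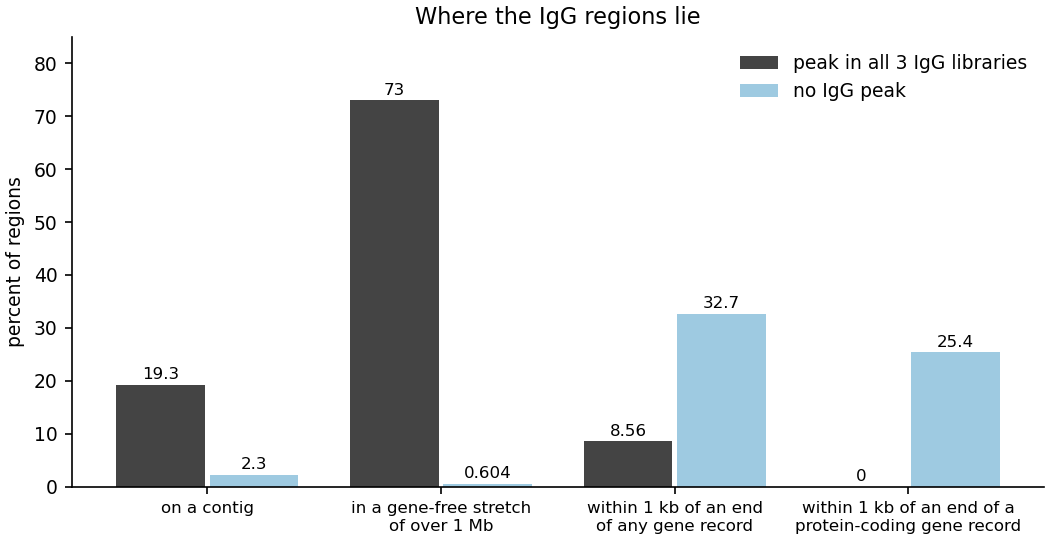
Percent of regions (vertical axis) of 4 kinds of location, for the 638 IgG regions (dark bars; 514 on chromosomes 1 to 22, X and Y for all but the contigs) and for the regions with no IgG peak (light bars). Contigs hold 19.3% against 2.3% and gene-free stretches 73% against 0.604%, while ends of protein-coding genes hold 0% against 25.4%. All regions with no IgG peak hold a peak of a target library.

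Within chromosomes the IgG regions were bunched. Joining neighbours less than 1 Mb apart gave 64 stretches, of which 17 with 10 or more IgG regions held 416 of the 514 (80.9%). The fullest was chr1:143184620-143275922, where 66 of the 76 merged regions of any library were IgG regions. It was followed by chr10:39966183-42099932 with 47, chr17:21973012-26885846 with 41, chr5:47649993-49667346 with 30 and chr4:49092750-51712603 with 29. Chromosome Y held 43 IgG regions, 15.6% of its 276 merged regions, where the share for chromosome 1 was 1.29% (97 of 7493). Among contigs, chr14_GL000225v1_random held 29 IgG regions of 65 merged regions. Repeat and cytoband annotation was not used here, so whether a stretch is satellite or centromeric sequence was not tested.

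The lists of genes at IgG regions were short. Contigs had no gene positions, so the 123 IgG regions there could not count in them. No IgG region lay within 10 kb of a globin gene, BCL11A, NR2C2, NR2C1, NPRL3 or ZBTB7A. None was in or within 1 kb of a record of the small nuclear RNA, nuclear transfer RNA, histone, ribosomal protein, olfactory receptor or zinc finger lists, nor of the list of fetal globin regulators. The list of mitochondrial genes and their nuclear pseudogenes had 62 of 524 records at 21 IgG regions. The list of ribosomal RNA genes, pseudogenes included, had 8 of 557 records at 6 IgG regions. Repeated gene families appeared besides these, in lists drawn up after the values were seen: FAM230 genes, a family of long noncoding RNAs on chromosomes 13 and 22, were at 10 IgG regions, and DUX4 genes and copies, whose unit lies in subtelomeric repeats, at 6.

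Most IgG regions had no peak in any library directed at TR4 or BCL11A. Of the 638, 456 (71.5%) had a peak in none of the 21 target libraries, and 182 (28.5%, 95% Wilson interval 25.2 to 32.2, which covers counting error only) in at least 1. Of these, 107 had a peak in 1 or 2 target libraries, 48 in 3 to 11 and 27 in 12 or more. None had a peak in all 21. The sources used here do not give whether IgG reads served as the control when target peaks were called, which would bear on this count.

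The 7 target libraries with replicate number 3 held most of the IgG regions with a target peak. In them 167 IgG regions had a peak, and 132 of these had one in no other target library. Without these 7 libraries, 50 of the 638 (7.84%) had a target peak. Counted by region and library, they gave 404 of the 855 target peaks in IgG regions (47.3%), 110 of 394 at mitochondrial regions (27.9%) and, outside these, 294 of 461 (63.8%). In the chromosome 1 stretch with 66 IgG regions, 24 had a target peak, all 24 in replicate 3 libraries alone. At the ribosomal RNA genes the split was the other way, with 1 of 40 such peaks in a replicate 3 library.

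**Figure D2:**
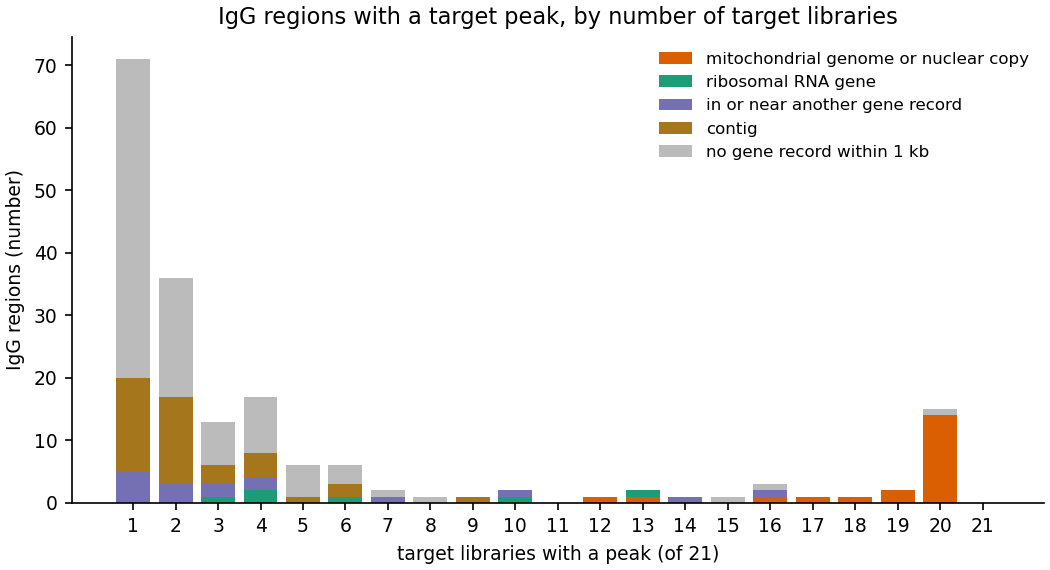
Number of IgG regions (vertical axis) by the number of target libraries with a peak there (horizontal axis, 1 to 21), coloured by what the annotation holds at the region. The 456 regions with no target peak are not drawn, and of the 15 regions in 20 libraries 14 are mitochondrial.

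The regions seen most widely were mitochondrial by annotation. The mitochondrial genome (chrM:7-16564 after merging) was 1 IgG region over its 37 gene records, 13 of them protein-coding genes of the respiratory chain and ATP synthase. A further 20 lay in or within 1 kb of nuclear copies, on 7 chromosomes. All 21 had a peak in 12 or more target libraries, with a median of 20, and they made up 21 of the 27 IgG regions seen that widely. They also gave 394 of the 855 peaks of target libraries in IgG regions, counted by region and library (46.1%). These groups were drawn by annotation after the values were seen, so the counts describe them and no test is given.

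At the mitochondrial genome the strongest peak differed by library. Its fold was 13.8, 15.9 and 6.8 with the MYC antibody in clone T, 15.3, 21.3 and 6.57 with the TR4 antibody in clone T, and 32.9, 31 and 19 with the TR4 antibody in clone TB. With the MYC antibody in clone TB it was 22, 24.1 and 23.1. BCL11A-directed libraries gave 4.15 and 3.07 with the MYC antibody in clone B and no peak in its replicate 3, 11.9, 9.24 and 3.33 with the HA antibody in clone B, and 8.67, 11.4 and 4.63 with the HA antibody in clone TB. The IgG libraries gave 4.54 in clone T, 5.15 in clone B and 4.11 in clone TB. The ranges of TR4-directed and BCL11A-directed libraries overlap, and those of BCL11A-directed and IgG libraries do too. Within each replicate number, the lowest TR4-directed fold was above the highest BCL11A-directed one. These folds were 13.8 against 11.9, 15.9 against 11.4 and 6.57 against 4.63 for replicates 1, 2 and 3. That order was not tested, and the numbers were not shown to pair libraries.

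The mitochondrial genome was covered in one sweep in most libraries and in pieces in others. In 14 target libraries with replicate number 1 or 2 it held 1 to 12 peaks that covered 14919 to 16553 bases. In the replicate 3 libraries it held 0 to 22 peaks over 0 to 16453 bases. In the IgG libraries it held 17 to 19 peaks over 5111 to 6482 bases.

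Among the nuclear copies, the region 651 bases from MTCYBP13, a cytochrome b pseudogene (chr17:22521360-22521551), had the highest mean fold percentile over the IgG libraries. In target libraries its fold was 2.56 at the lowest, 9.2 at the median and 18.3 at the highest over 9 TR4-directed libraries, and 2.93, 8.13 and 15.2 over the 8 BCL11A-directed libraries with a peak. The IgG folds were 98.4 in clone T, 82.5 in clone B and 85.4 in clone TB. In target lists it was a middling peak by fold, with a median fold percentile of 46.1 over TR4-directed libraries and 39.6 over BCL11A-directed ones.

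The order differed for other copies. On chromosome 5, within the gene PCBD2, which codes for a dehydratase of tetrahydrobiopterin recycling, the region at MTND6P4 and MTND5P11 (chr5:134924340-134924697) had folds of 6.23 to 56.6 (median 31.9) in 9 TR4-directed libraries. It had folds of 5.49 to 16.3 (median 12.2) in 6 BCL11A-directed libraries and no peak in the replicate 3 libraries of MYC in clone B, HA in clone B and HA in clone TB. Its IgG folds were 13 in clone T, 12 in clone B and 11.8 in clone TB. The region at MIR12136, whose sequence is shown above (chr1:632491-632977), had target folds of 1.35 to 23.6 in 20 libraries against IgG folds of 2.01 to 2.61, near the bottom of the IgG lists.

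Other nuclear copies lay at MTRNR2L8 on chromosome 11, MTRNR2L12 on chromosome 3, and MTND6P3 inside KIAA0825 on chromosome 5. The fewest libraries were at MTND4LP1 on chromosome X, with 13, and at MTATP8P2 inside RGPD2 on chromosome 2, with 12.

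**Figure D3:**
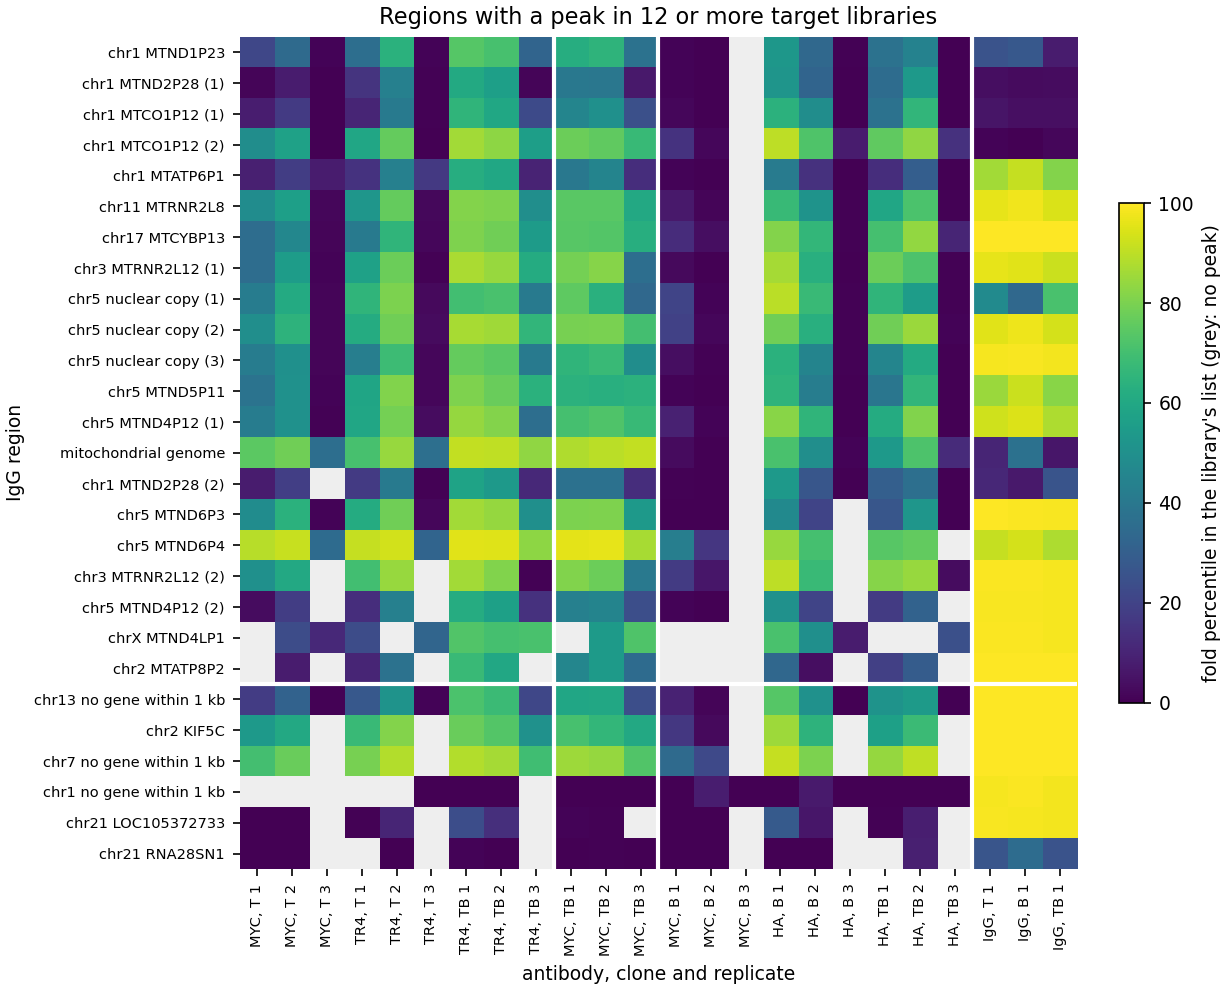
The 27 IgG regions with a peak in 12 or more target libraries (rows, named by chromosome and, where given, gene, the 21 mitochondrial ones above the line) in each library (columns, TR4-directed, MYC in clone TB, BCL11A-directed and IgG from left to right). Colour is the percentile of the region's strongest peak by fold within that library's list, and grey means no peak, as in the whole column of MYC in clone B replicate 3 but for 1 region.

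One library had no mitochondrial peak at all. MYC in clone B replicate 3 had a peak at 0 of the 21 mitochondrial regions, and it is the library missing from each of the 15 IgG regions with 20. The other 20 target libraries had 16 to 21. Both other MYC libraries of clone B had 19, at low folds for their lists: the nuclear copies had a median fold percentile of 2.72 in replicate 1 and 0.337 in replicate 2. Replicate 3 libraries of other groups were as low, with 1.17 for MYC and 1.64 for TR4 in clone T. For HA it was 0.379 in clone B and 0.356 in clone TB. The library without mitochondrial peaks had peaks at 40 of the other 617 IgG regions, more than the 19 and 20 of its group. Whether its reads on the mitochondrial genome were removed or absent was not tested.

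The other IgG regions with a peak in 12 or more target libraries, 6 in all, carry no mitochondrial annotation. The most widely seen, with 20 libraries, lay 19827 bases from the long noncoding RNA gene LOC105370359 (chr13:109424131-109424340). Its IgG folds were 75.9 in clone T, 68 in clone B and 71.7 in clone TB, and its target folds ran from 1.55 to 14. It was seen in the same 20 libraries as the mitochondrial genome.

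The narrowest of all IgG regions, of 88 bases, lay 119373 bases from CNTNAP2, a neuronal adhesion gene (chr7:145997341-145997428). A region of 94 bases lay inside KIF5C, a kinesin motor gene, and its antisense record KIF5C-AS1 (chr2:148881762-148881855). Each had a peak in 16 target libraries, and the same 16 for both, all of which had a peak at the mitochondrial genome. Their folds were 12.2 to 26.9 and 8.93 to 18.5 in 7 TR4-directed libraries, 5.96 to 20.6 and 4.1 to 16.8 in 6 BCL11A-directed libraries, and 74.6 to 87.5 and 61.2 to 85.1 in IgG.

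The remaining ones were of another kind, with low folds in target lists. A region 13413 bases from the pseudogene ACO2P2 (chr1:236097113-236097407) was in 15 target libraries at folds of 1.41 to 4.83, against 34.3 to 38.9 in IgG. A region inside LOC105372733 on chromosome 21 was in 14 at folds of 2.38 to 6.35, against 27.7 to 42.3 in IgG. A region in RNA28SN1, a 28S ribosomal RNA gene, was in 13 at folds of 2.32 to 4.39, against 4.72 to 5.12 in IgG.

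The 6 IgG regions at ribosomal RNA genes with a known position all lay on chromosome 21 and all had a target peak, in 3 to 13 libraries. Contigs had no gene positions, so any such genes at the 123 IgG regions there could not be counted. They fall in RNA45SN2, RNA45SN3 and RNA45SN1, which hold the 18S, 5.8S and 28S units. Their IgG fold percentiles were low for these regions, with a median of 35.9, against 85.2 for all 617 outside the mitochondrial group. Copies of these genes are near-identical, so reads cannot be assigned to 1 of them with certainty.

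The FAM230 and DUX4 regions are read against the 617 regions outside the mitochondrial group, of which 26.1% had a target peak. Of the 10 at FAM230 genes 4 had any, and 1 inside FAM230C (chr13:18211780-18212199) had 10, at folds of 2.41 to 3.15 against 32 to 42.1 in IgG. Of the 6 at DUX4 genes and copies 2 had any, in 1 library each.

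Some IgG regions without a target peak were among the strongest in IgG. By mean fold percentile over the IgG libraries, 8 regions with no target peak ranked at 99.1 or above. They include a region on chromosome 21 4743 bases from EIF3FP1 (chr21:10325739-10325897) at 99.9, and others on chromosomes 9, 10 and 17 that lay 289328 bases or more from any gene record. A further one was on the contig chr17_KI270729v1_random.

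Peaks in IgG regions, many of them mitochondrial, had a high median rank by q-value within target lists, while their rank by fold ran from the bottom to the upper part of the list. In target libraries of replicates 1 and 2, an average of 20.3 mitochondrial and 11.9 other regions had a peak. The median −log10 q percentile of a library's peaks in IgG regions was 77.2 to 99.9 over 21 target libraries, with a median of 99.8 over libraries. For nuclear copies alone it was 95 to 99.9 where they had a peak. Some other regions ranked low. The region in RNA28SN3 (chr21:8400469-8400807) had a −log10 q of 2.25 to 8.3 in 6 BCL11A-directed lists, whose medians were 9.55 to 13.4. The median fold percentile of all peaks in IgG regions was 0.168 to 75.3, with a median of 33.6. In the IgG lists the median fold percentiles were 82.8 in clone T, 91.7 in clone B and 80.7 in clone TB.

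**Figure D4:**
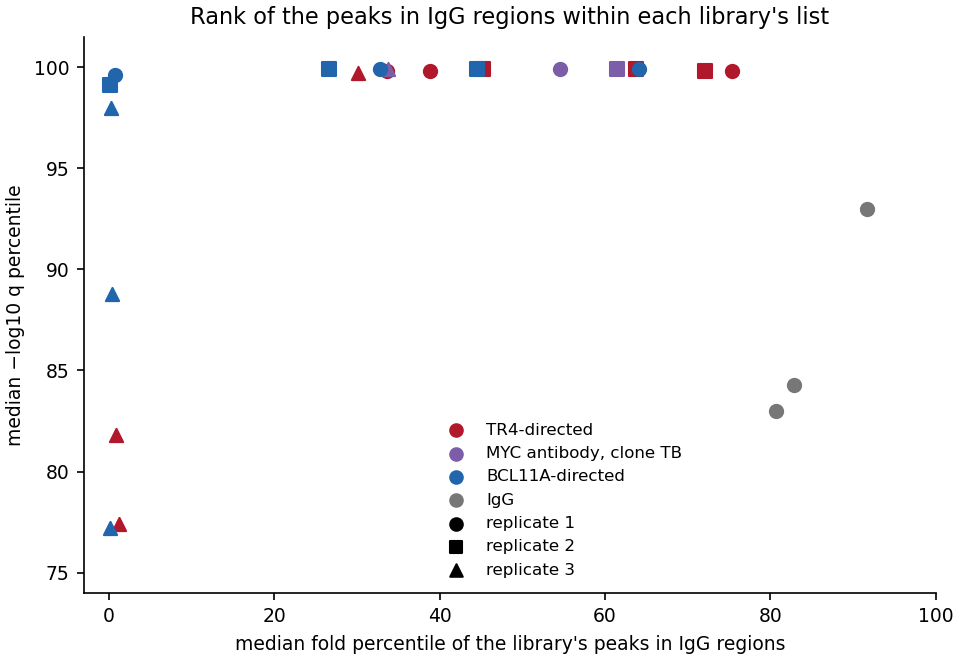
Median −log10 q percentile (vertical axis, from 74) against median fold percentile (horizontal axis) of each library's peaks in IgG regions, within that library's own list. Most target libraries lie at the top, 5 libraries of replicate 3 and 2 of MYC in clone B lie at the far left, and the 3 IgG libraries lie at the right.

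TR4-directed and BCL11A-directed libraries were then compared for how much of them lay in IgG regions. The rule chose regions by their IgG peaks alone. Target peaks were joined into the regions, though, and helped to set their borders, and the part of this was not tested. Per library, peaks in IgG regions made up 0.224 to 2.39% of the list in TR4-directed libraries (median 0.295%), and 0.132 to 0.757% in BCL11A-directed libraries (median 0.174%). The means were 0.713 ± 0.797% and 0.293 ± 0.225% (SD, n = 9 each), and an exact two-sided permutation test gave p = 0.178 for the difference of 0.42 percentage points. TR4-directed lists were shorter, with 10154 ± 3807 peaks against 23089 ± 7441 (SD, n = 9 each). With every target list limited to its 4621 strongest peaks by fold, the difference was 0.416 points and passed the test (exact permutation p = 0.00136). That limit kept the list of MYC in clone T replicate 3 whole. BCL11A-directed lists, of 12284 to 31432 peaks, were on the whole cut further and lost more of their peaks of lower fold. The part of this in the difference was not tested. The difference also passed with no replicate 3 library, at 0.127 points over 6 libraries against 6 (exact permutation p = 0.00216), and with labels permuted within replicate number (exact permutation p = 0.0165), although the numbers were not shown to pair libraries. Without TR4 in clone T replicate 3 the difference was 0.21 points. Single peaks are counted here, so a region covered in pieces counts more than once. The mitochondrial genome held 2 to 19 peaks per TR4-directed list and 0 to 22 per BCL11A-directed list. The part of this in the difference was not tested. On chromosomes 1 to 22, X and Y alone, the difference was 0.36 points and passed (exact permutation p = 0.0345).

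The share of the 638 regions with a peak did not pass the test either. TR4-directed libraries averaged 6.46 ± 4.04% and BCL11A-directed ones 6.70 ± 2.14% (SD, n = 9 each; difference −0.244 points, exact two-sided permutation p = 0.939). The direction turned at equal list length, a limit that removed more of the BCL11A-directed lists. There TR4-directed libraries had the higher share by 2.44 points (exact permutation p = 0.0016). Without the replicate 3 libraries it was lower in TR4-directed libraries by a called amount (difference −1.02 points, 6 libraries against 6, exact permutation p = 0.00216).

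The rank of these peaks overlapped widely between targets. TR4-directed libraries had a median fold percentile of 40.1 ± 27.5, against 18.9 ± 24.2 for BCL11A-directed libraries (SD, n = 9 each). The difference of 21.2 points did not pass the exact two-sided permutation test (p = 0.0949). It passed when MYC in clone T replicate 3, TR4 in clone T replicate 3 or HA in clone B replicate 1 was left out (exact permutation p = 0.0455, 0.046 and 0.0342), and with labels permuted within replicate number (p = 0.0338).

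Region by region, few IgG regions could be tested. A peak in 4 or more of the 18 libraries, the minimum for a test, was found at 60 of the 638 and not at 578. Fisher's exact test (two-sided), Benjamini-Hochberg adjusted over all 24796 regions tested, called 2 of the 60 (3.33%), both with more BCL11A-directed libraries. Over all regions tested it called 27.5%, and 25.6% toward BCL11A. The members that reached 4 libraries are a selected part, so the counts are set side by side without a test.

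The first of the called regions lies in RNA28SN3 (chr21:8400469-8400807), with peaks in 0 of 9 TR4-directed libraries against 6 of 9 BCL11A-directed ones (Fisher's exact p = 0.00905, Benjamini-Hochberg adjusted p = 0.0328). Its folds in the 6 were 1.99 to 3.59, near the bottom of their lists. MYC in clone TB, which recovers both proteins, had 0 of 3 libraries there. The other tested regions at ribosomal RNA genes varied in direction, and none was called. In the same order of targets, the counts were 5 and 3 for the next region of RNA28SN3 (chr21:8401235-8401638). In RNA28SN1 they were 1 and 3 (chr21:8444750-8445259) and 5 and 5 (chr21:8445457-8446278). The call thus holds for that region alone, not for the gene. The second called region lies near ACO2P2, with a peak for 3 of 9 TR4-directed libraries and 9 of 9 BCL11A-directed ones. Its p and adjusted p were the same as those of the first. Its folds were 1.41 to 2.86 in the TR4-directed libraries and 1.58 to 4.83 in the BCL11A-directed libraries. In clone TB it had a peak with the TR4 antibody in replicates 1 and 2, and with the HA and MYC antibodies in all 3. In clone T only replicate 3 of the TR4 antibody had a peak there, while in clone B every library did. The part of the clone in this call was not tested. The call near ACO2P2 was lost with no replicate 3 library and with the replicate number as a block. The call in RNA28SN3 was lost when target peaks needed a −log10 q of at least 5. Both were lost without the MYC libraries, where 8.93% of all regions tested were called.

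None of the 21 mitochondrial regions was called by Fisher's exact test, and none had an unadjusted p under 0.05. Most of the 21 were seen in nearly all of the 18 libraries compared, which leaves no split that could give so low a p. For those regions the test cannot tell whether the targets differ, and no conclusion is drawn from the missing calls. At equal list length 16 IgG regions could be tested and 5 were called, all with more TR4-directed libraries and all mitochondrial, where 38.1% of all regions were called and 19.8% toward TR4. These were the mitochondrial genome (9 of 9 TR4-directed, 0 of 9 BCL11A-directed libraries, Fisher's exact adjusted p = 0.000388), the region at MTND6P4 (9 and 1 of 9), and the regions at MTRNR2L8, MTND6P3 and the second at MTND5P11 (6 and 0 of 9 each). The limit on list length removed more of the BCL11A-directed lists, and its part in these calls was not tested.

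The percent of peaks in IgG regions was also compared in 4 pairs of groups that share an antibody or a clone. It was 0.760 ± 0.879% with the MYC antibody in clone T and 0.231 ± 0.0844% with it in clone B. Of the clone TB lists, those of the TR4 antibody had 0.367 ± 0.131% and those of the HA antibody 0.301 ± 0.242%. The TR4 antibody gave 1.01 ± 1.20% in clone T, and the HA antibody 0.348 ± 0.355% in clone B (SD, n = 3 each). Exact two-sided permutation tests gave p = 0.4 for MYC in T against B, 0.6 for TR4 against HA in TB, 0.7 for TR4 in TB against T and 1 for HA in TB against B. Adjusted over the 4 pairs these were 0.933, 0.933, 0.933 and 1, and 3 libraries against 3 cannot go below 0.1.

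Counts of regions with a peak also differed by replicate number. The percent of peaks depends on list length as well, and the part of each in its spread was not tested. Of the 617 regions outside the mitochondrial group, TR4-directed libraries had a peak at 11, 6 and 44 (MYC, clone T), 8, 11 and 86 (TR4, clone T), and 7, 8 and 12 (TR4, clone TB). MYC in clone TB had 14, 9 and 14. BCL11A-directed libraries had 19, 20 and 40 (MYC, clone B), 11, 14 and 55 (HA, clone B), and 14, 15 and 43 (HA, clone TB). The third value, that of replicate 3, was the highest in 6 of the 7 groups and shared the highest place in MYC of clone TB.

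Other values moved with replicate 3. The lowest fold in the list was 1.08 to 1.51 in replicate 3 libraries, 1.48 to 2.18 in the other 14 target libraries, and 1.24 to 1.33 in the IgG libraries. The lists had 4621 to 20928 peaks in replicate 3 libraries and 8832 to 31432 in the others. Read depth is not known from these files, and the part of these values in the overlap was not tested.

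**Figure D5:**
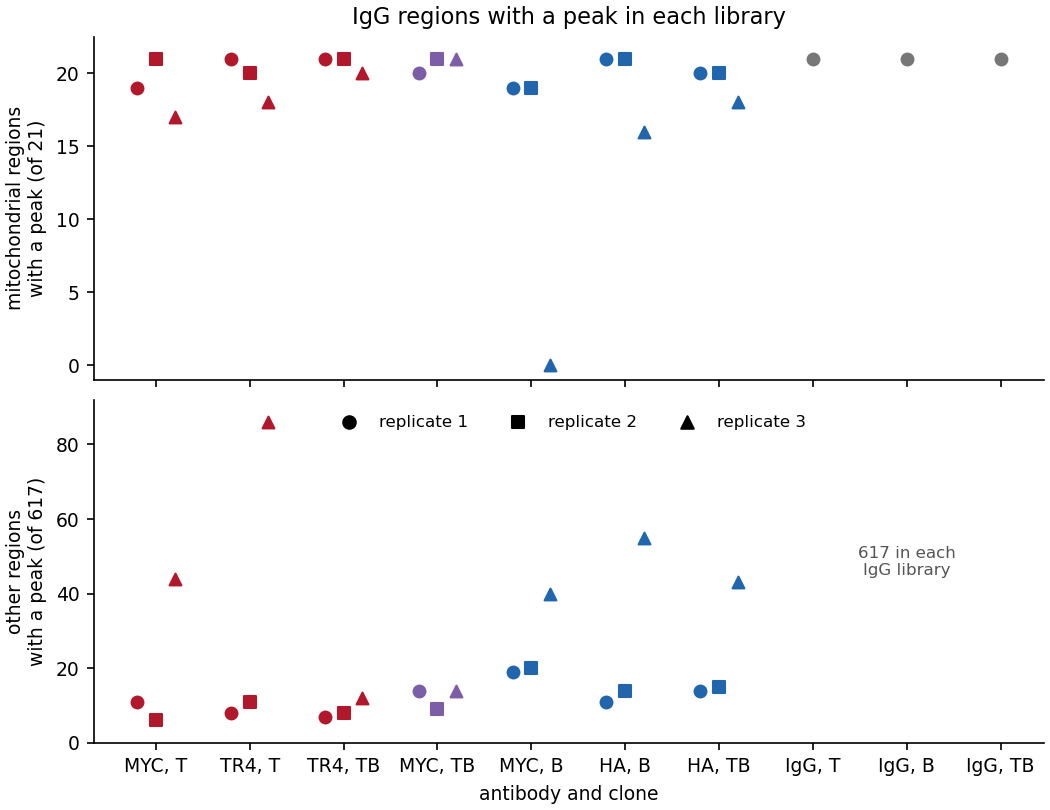
Number of the 21 mitochondrial regions (top) and of the other 617 IgG regions (bottom) with a peak in each library, by antibody and clone (horizontal axis; TR4-directed in red, MYC in clone TB in purple, BCL11A-directed in blue, IgG in grey), with symbols for the replicate number. MYC in clone B replicate 3 stands at 0 in the top panel and TR4 in clone T replicate 3 at 86 in the bottom panel.

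The 638 IgG regions as a whole were seen more often in target libraries than regions with a peak in only 1 or 2 IgG libraries, but for those outside the mitochondrial group the difference did not pass the test. The share with a target peak in a library was 6.38 ± 2.94% for the 638 and 2.40 ± 1.01% for the 6711 other IgG regions (SD, n = 21 libraries). The difference of 3.98 points was positive in 21 of 21 libraries (permutation test with 100000 sign changes, two-sided p = 1e-05, the smallest it can give). Without the 21 mitochondrial regions the share was 3.56 ± 3.29% for the other 617 (SD, n = 21), and the difference of 1.15 points did not pass (permutation p = 0.187); it was positive in 6 libraries and negative in 15. With the replicate 3 libraries left out as well it was −0.78 points and negative in 14 of 14 libraries (permutation p = 0.00018). At equal list length, with all 638, it was 0.731 points and no longer passed (permutation p = 0.108). The IgG regions were also wider, and a wider region can take in more peaks; the part of width was not tested. With a peak in at least 1 target library counted over regions, the shares were 28.5% for 3 IgG libraries, 14.1% for 2 and 7.11% for 1. Of the regions with a peak in 1 or 2 IgG libraries, 9 had a peak in all 21 target libraries, a number none of the 638 reached.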

How the data were processed

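CUT&RUN peaks of 24 libraries (21 target, 3 IgG) were analysed. The tools named per the submitters' processing notes are MACS2 2.1.4, Bowtie2, SAMtools, Picard and Trimmomatic, with build GRCh38. Their roles, and whether a control was used, are not given in the sources used here. Each library has its own list as deposited by the authors, with a linear fold (ratio) and a −log10 q for every peak. Read counts were not analysed here, so depth is unknown.

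Overlapping peaks (1 base or more) were merged, and a region counted for a library if it held any of its peaks; its fold there is that of the strongest. Percentiles are ranks within 1 list. Gene records, without strand or exons, came from RefSeq (GRCh38.p14; 59716 records, 20050 protein-coding), so exons, introns and UTRs are not given. Contigs had no gene positions.

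Means were compared by two-sided exact permutation tests over libraries, the paired difference 100000 sign changes, and single regions a two-sided Fisher's exact test, Benjamini-Hochberg adjusted (0.05) over all regions seen in 4 or more of 18 libraries. Python 3.11.15, numpy 2.4.6, pandas 2.3.3 and scipy 1.17.1 were used.

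The regions and lists were chosen with earlier results of these data known. The mitochondrial list was widened from its prefix to chrM genes and their nuclear pseudogenes after values were seen. Named regions are the 8 highest by mean IgG fold percentile, the 8 highest by target fold percentile among those in the most target libraries, the 8 highest by IgG fold percentile with no target peak, the 5 of lowest p in each direction, those near globin genes and their regulators or at coding gene ends, and the widest and narrowest. Others were named after their values were seen. Alternatives were list length, stricter q, merging within 200 bases, primary chromosomes, the IgG rule, gene windows, left-out libraries and the replicate number as a block. Over the presence of peaks in all regions tested, deviations of same-numbered libraries of the 2 targets had 27 correlations of −0.08 to 0.02, so the numbers were not taken as pairs; counts at IgG regions and lowest folds did move with number 3. A gene record that holds IgG regions is not reported here.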

Additional observations from a re-analysis of the deposited data

Results flagged for a closer look

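Of 10 sets of 9 libraries examined, 3 held a library whose gap to the next exceeded Dixon's 95% critical value; chance does this in about 1 in 20. MYC in clone B replicate 3 had peaks at 0 of the 21 mitochondrial regions, far below the other 8 BCL11A-directed libraries. TR4 in clone T replicate 3 had a peak at 16.3% of the 638 IgG regions, far above the other 8 TR4-directed libraries. The same library had peaks at 86 of the 617 regions outside the mitochondrial group, also apart from the others. These last values share their peaks and are not separate signs.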

How the results depend on the processing

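With target lists limited to the shortest, the difference in percent of peaks was 0.416 (exact permutation p = 0.00136), that in percent of regions 2.44 (p = 0.0016), called regions 5 of 16 (38.1% of all regions tested), the excess over other IgG regions 0.731 (permutation p = 0.108), regions with a target peak 10.5%, and TR4 in clone TB minus T 0.224 points. With no replicate 3 library, chosen after seeing the data, these were 0.127 and −1.02 (exact permutation p = 0.00216 each), 1 called region of 38 (31.8% of all regions tested) and 7.84% with a target peak. With the replicate number as a block the difference in percent of peaks stayed 0.42 (exact permutation p = 0.0165) and that in fold percentile 21.2 (p = 0.0338). Of 60 IgG regions 1 was called, against 28.2% of all regions tested. The numbers were not shown to pair libraries. Without the mitochondrial regions, also chosen after seeing the data, the excess over other IgG regions was 1.15 (permutation p = 0.187), and with no replicate 3 library besides, −0.78 (p = 0.00018). Primary chromosomes alone gave 0.36 for percent of peaks (exact permutation p = 0.0345) and 0.151 for percent of regions. Called IgG regions are given here with the share called of all regions tested. They were 1 of 51 at a −log10 q of at least 5 in target lists (31.4%) and 1 of 56 at that limit in IgG lists (27.5%). Without the MYC libraries they were 0 of 38 (8.93%, Fisher's exact test, 0 at unadjusted p under 0.05). With regions in at least 1 of 18 libraries they were 0 of 181 (6.97%, 2 at unadjusted p). A peak in at least 2 IgG libraries gave 1008 regions, 23.2% with a target peak and 5 called of 82 (27.5% of all regions tested). A 5 kb window put 2.33% near a coding gene end, and ends of all gene records 8.56%.

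Leaving out 1 target library gave 0.21 to 0.481 for percent of peaks, −1.47 to 0.309 for percent of regions (positive without MYC in clone T replicate 2, TR4 in TB replicate 1, HA in B replicate 3 or HA in TB replicate 3), 16.8 to 26.9 for fold percentile, 2 to 2 called regions, and 3.42 to 4.11 for the excess over other IgG regions. Of all regions tested, 31.5 to 39.6% were called in these runs. Leaving out 1 IgG library gave 0.432 to 0.456, −0.417 to −0.168, 17.8 to 21.8, 2 to 4 called (4 of 66 without IgG of clone T, where 27.5% of all regions tested were called), 3.3 to 3.93, 691 to 800 regions, 25.2 to 27.9% with a target peak and 0 to 0.307% near coding gene ends. For the pairs, added after seeing the data, the ranges were 0.0215 to 0.797 (MYC, T minus B), −0.00931 to 0.206 (TR4 minus HA in TB), −1.02 to 0.0439 (TR4, TB minus T) and −0.187 to 0.158 (HA, TB minus B).

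Of 215 values recomputed, 174 counted as the same. For tested differences this means the same direction and the same side of the threshold. For counts of regions it means a number close to the main one, and for shares of regions a value inside the main Wilson interval. The cause of the other changes was not tested, and the limit on list length removed more of the longer BCL11A-directed lists. Depth is unknown, so the absence of a target peak is not an absence of reads. Each genotype is 1 clone and IgG has 1 library per clone.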
